A study of Homo sapiens with 4 samples.

Results

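The genes described here are 10 core pluripotency factors of human embryonic stem cells, POU5F1, NANOG, SOX2, LIN28A, UTF1, ZFP42, L1TD1, DPPA4, SALL4 and VRTN. They were chosen by name, and every probe whose gene symbol on the platform was one of these was taken, which gave 13 of the 47293 probes on the array. SOX2, NANOG and POU5F1 have 2 probes each and the other 7 genes have 1. The cells were H9, an established human embryonic stem cell line, grown on Matrigel in E8, a defined medium that was changed every day, and total RNA was taken on day 2. The groups were high density (above 90% confluence) with 20 mM of extra sodium bicarbonate, high density in plain E8, low density (below 70% confluence) with the same bicarbonate, and low density in plain E8. Plain E8 is called control below. Each group is 1 Illumina array, so no test between groups can be run, no difference has a replicate check and the number of arrays limits the precision. The series title is about how such cells fare in crowded culture when acid build-up in the medium is held back.

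POU5F1 (OCT4), SOX2 and NANOG are the transcription factors at the centre of the pluripotency network. OCT4 and SOX2 bind DNA side by side at a joint SOX-octamer element, and together with NANOG they occupy the regulatory regions of one another and of many other genes active in these cells. SALL4 is a zinc finger factor that works with them, LIN28A is an RNA-binding protein that blocks maturation of the let-7 microRNAs, and L1TD1 is an RNA-binding protein derived from a retrotransposon. UTF1, DPPA4 and ZFP42 (REX1) are nuclear proteins whose transcripts mark undifferentiated cells and are lost as cells differentiate, and VRTN is best known from pigs, where it affects the number of thoracic vertebrae.

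Upstream sequences were at hand for 7 of the 10 genes, from RefSeq on GRCh38.p14, and the 250 bases before 1 transcript start per gene were searched on both strands for the octamer half-site ATGCAAA, the SOX site CATTGT and the joint element, which is the SOX site, 1 base of any kind and the octamer half-site. For NANOG, SOX2, UTF1, ZFP42 and L1TD1 that start is the outermost end of the annotated gene. For VRTN it lies 45478 bases and for DPPA4 2090 bases inside the gene, so their windows are not upstream of the whole gene. The joint element was found upstream of NANOG and of no other of these 7 genes, at bases -120 to -107 from the start, on the minus strand, so that its parts also count as an octamer half-site and a SOX site. Over all 27305 promoters of that length, 2 held the joint element (0.00732%), 3.98% held the octamer half-site and 9.45% the SOX site. SOX2 has a separate octamer half-site at -100 to -94. L1TD1, UTF1, DPPA4, VRTN and ZFP42 held none of these letters in this window, which says nothing of binding elsewhere. Shown here, 5′ to 3′ on each gene's own strand with the matches in capitals, are the 2 promoters with a match, then those of VRTN and ZFP42, the pair whose values over the arrays were close to each other, and of UTF1, the member with the widest span.
NANOG (chr12:7789152-7789401, plus strand): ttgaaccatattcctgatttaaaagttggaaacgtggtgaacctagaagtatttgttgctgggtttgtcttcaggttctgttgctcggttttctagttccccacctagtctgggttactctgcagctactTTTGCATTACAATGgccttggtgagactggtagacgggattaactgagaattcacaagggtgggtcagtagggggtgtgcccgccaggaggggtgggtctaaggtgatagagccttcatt
SOX2 (chr3:181711675-181711924, plus strand): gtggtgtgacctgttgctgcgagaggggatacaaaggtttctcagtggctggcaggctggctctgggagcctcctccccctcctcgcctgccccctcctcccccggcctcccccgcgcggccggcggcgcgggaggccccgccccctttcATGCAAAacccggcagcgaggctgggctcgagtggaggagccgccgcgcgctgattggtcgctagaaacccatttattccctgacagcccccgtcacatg
VRTN (chr14:74348221-74348470, plus strand): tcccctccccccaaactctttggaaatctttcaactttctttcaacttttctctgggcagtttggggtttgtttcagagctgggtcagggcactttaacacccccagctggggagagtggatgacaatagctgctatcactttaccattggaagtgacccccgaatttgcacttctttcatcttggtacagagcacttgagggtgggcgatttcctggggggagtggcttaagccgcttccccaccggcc
ZFP42 (chr4:187995521-187995770, plus strand): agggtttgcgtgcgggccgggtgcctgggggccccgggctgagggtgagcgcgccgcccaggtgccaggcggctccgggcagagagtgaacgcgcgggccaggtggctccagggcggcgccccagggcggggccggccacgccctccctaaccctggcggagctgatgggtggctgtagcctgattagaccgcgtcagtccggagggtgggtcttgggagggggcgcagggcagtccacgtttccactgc
UTF1 (chr10:133229967-133230216, plus strand): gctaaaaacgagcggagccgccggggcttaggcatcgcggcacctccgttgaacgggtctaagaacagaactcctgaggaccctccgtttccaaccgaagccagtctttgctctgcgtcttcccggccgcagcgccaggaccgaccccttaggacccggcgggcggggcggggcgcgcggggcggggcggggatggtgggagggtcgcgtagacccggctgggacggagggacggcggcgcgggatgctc
The windows of VRTN and ZFP42 differ in make-up, with a GC content of 52.0% and 74.4% and with 4 and 23 CG dinucleotides, against medians of 58.0% and 11 over all promoters. UTF1 has 70.8% GC and 32 CG dinucleotides. The GC box GGGCGG, searched on both strands, occurs in 5 of the 7 windows (UTF1, ZFP42, SOX2, DPPA4 and L1TD1) and not in those of VRTN and NANOG, and 42.3% of all promoters hold it.

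A probe was called detected at a detection p-value under 0.01, and 10 of the 13 probes were detected on all 4 arrays. UTF1 was detected on 3 arrays, with detection p-values listed as 0 on both high-density arrays, 0.0338 at low density with bicarbonate and 0.0052 in the low-density control. The second probes of NANOG and POU5F1 were detected on no array and were not used further. The second probe of POU5F1 was designed on another transcript (NM_203289) than the first (NM_002701). The number of detected probes on the arrays ranged from 14128 to 15213. Before normalization the array of high density with bicarbonate was the dimmest, with a median intensity of 117.4, against 153.5 to 166.6 on the other arrays. Quantile normalization sets the arrays to 1 distribution, so each difference below is relative to the other probes of the arrays. Where 2 probes of a gene were detected, the brighter one stands for the gene. OCT4 and NANOG have processed copies elsewhere in the genome, and whether a probe also binds their transcripts was not tested.

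The stem cell markers matched the label of the cells. POU5F1, NANOG, SOX2, LIN28A, DNMT3B and CRIPTO were detected on all 4 arrays. None of 11 mesendoderm markers and none of 10 trophoblast and amnion markers on the platform was detected on any array. Of 11 neuroectoderm markers, NES alone was detected, on all 4 arrays. Of 11 endoderm markers, FOXA2 and AFP were detected on both low-density arrays and on neither high-density array. For FOXA2 this rests on 1 probe, and its other probes were detected on no array. The summed normalized level of these 2 endoderm genes was 74 at high density with bicarbonate, 80 in the high-density control, 1417 at low density with bicarbonate and 774 in the low-density control. Both high-density sums are of undetected values. Most of the low-density sums was FOXA2, at log2 values of 10.15 with bicarbonate and 9.22 in the control, against 8.14 and 7.48 for AFP. Of 10 fibroblast markers 4 were detected on every array (COL1A1, COL1A2, PDGFRB and THY1, the last of which stem cells also express), with DCN, LUM and COL3A1 among the undetected. The summed level of these 4 was 7513, 8459, 5221 and 6005 in the same order. Most of that sum was THY1, at log2 values of 12.52, 12.84, 12.12 and 12.31. COL1A1 (9.35, 8.36, 8.15 and 8.05) and COL1A2 (9.64, 9.06, 8.28 and 8.89) stood highest at high density with bicarbonate. PDGFRB stood highest in the high-density control (8.15). These marker levels differ with density as some members do, and their part in the members' values was not tested. In RNA of whole cultures, fewer cells with a transcript and less transcript per cell cannot be told apart.

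POU5F1, the gene of OCT4 (gene on chr6:31164337-31170682, GRCh38.p14), had normalized log2 intensities of 11.29 at high density with bicarbonate, 11.20 in the high-density control, 11.05 at low density with bicarbonate and 11.55 in the low-density control. The low-density control stood highest and low density with bicarbonate lowest, a span of 0.50, which 54.8% of the 8554 genes detected on all 4 arrays matched or exceeded. NANOG (chr12:7789402-7799146) stood at 9.53 at high density with bicarbonate, 9.50 in the high-density control, 10.16 at low density with bicarbonate and 9.90 in the low-density control. Both low-density arrays were above both high-density arrays, and the high-density values lay 0.04 apart. The brighter probe of SOX2 (chr3:181711925-181714436) stood at 12.09 at high density with bicarbonate, 11.82 in the high-density control, 11.99 at low density with bicarbonate and 11.73 in the low-density control. Its second probe, on the same accession, gave 10.48, 10.12, 10.20 and 10.51 in that order of arrays. The probes put the low-density control at opposite ends, lowest on the brighter probe and highest on the second, so the order of the SOX2 levels is not settled.

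The zinc finger factors SALL4 and ZFP42 differed in how far they varied. SALL4 (chr20:51782331-51802521) lay between 11.21 and 11.43 on the 4 arrays, a span of 0.22 that 90.4% of genes matched or exceeded. ZFP42 (chr4:187995771-188005246) stood at 11.83 at high density with bicarbonate, 11.30 in the high-density control, 12.14 at low density with bicarbonate and 12.14 in the low-density control. The high-density control was lowest, by 0.53 below high density with bicarbonate, which was itself 0.31 below both low-density arrays, and the low-density arrays could not be ordered. With arrays set to equal medians, high density with bicarbonate stood 0.21 above the high-density control. It then stood at -0.60 and -0.61 against low density with bicarbonate and the low-density control. The medians of all genes in these comparisons were -0.14, -0.11 and -0.21 under that setting. Relative to them ZFP42 was at 0.35, -0.49 and -0.40, all short of 1.5-fold. VRTN (chr14:74302993-74360008) had a like order, at 9.33 at high density with bicarbonate, 8.70 in the high-density control, 9.60 at low density with bicarbonate and 9.58 in the low-density control. Its span of 0.90 was matched or exceeded by 17.5% of genes, and that of ZFP42, 0.84, by 20.7%.

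Of the RNA-binding members, LIN28A (chr1:26410817-26429728) lay between 12.68 in the low-density control and 13.05 in the high-density control, with 12.85 at high density and 12.98 at low density in bicarbonate. L1TD1 (chr1:62194849-62212328) spread much further, at 13.00 at high density with bicarbonate, 12.76 in the high-density control, 13.78 at low density with bicarbonate and 13.40 in the low-density control. Both low-density arrays of L1TD1 were above both high-density arrays, and the span of 1.03 was matched or exceeded by 11.6% of genes. DPPA4 (chr3:109326144-109339636) was among the flattest members, between 12.48 and 12.71. UTF1 (chr10:133230217-133231558) stood at 7.49 at high density with bicarbonate, 7.67 in the high-density control and 6.48 in the low-density control, and its probe at low density with bicarbonate, at 5.95, was not well above background. Both high-density arrays were above both low-density arrays, the reverse of NANOG and L1TD1. Its raw intensities of 234.4, 340.5, 177.6 and 232.5 in the order used here are close to the background, and the span of 1.72 includes the undetected value. The median span of genes detected on all arrays was 0.53, so SOX2 (0.36), LIN28A (0.37), DPPA4 and SALL4 varied less than the typical gene. POU5F1 (0.50) lay close to that median. Spans were not recomputed under other processing settings.

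**Figure D1:**
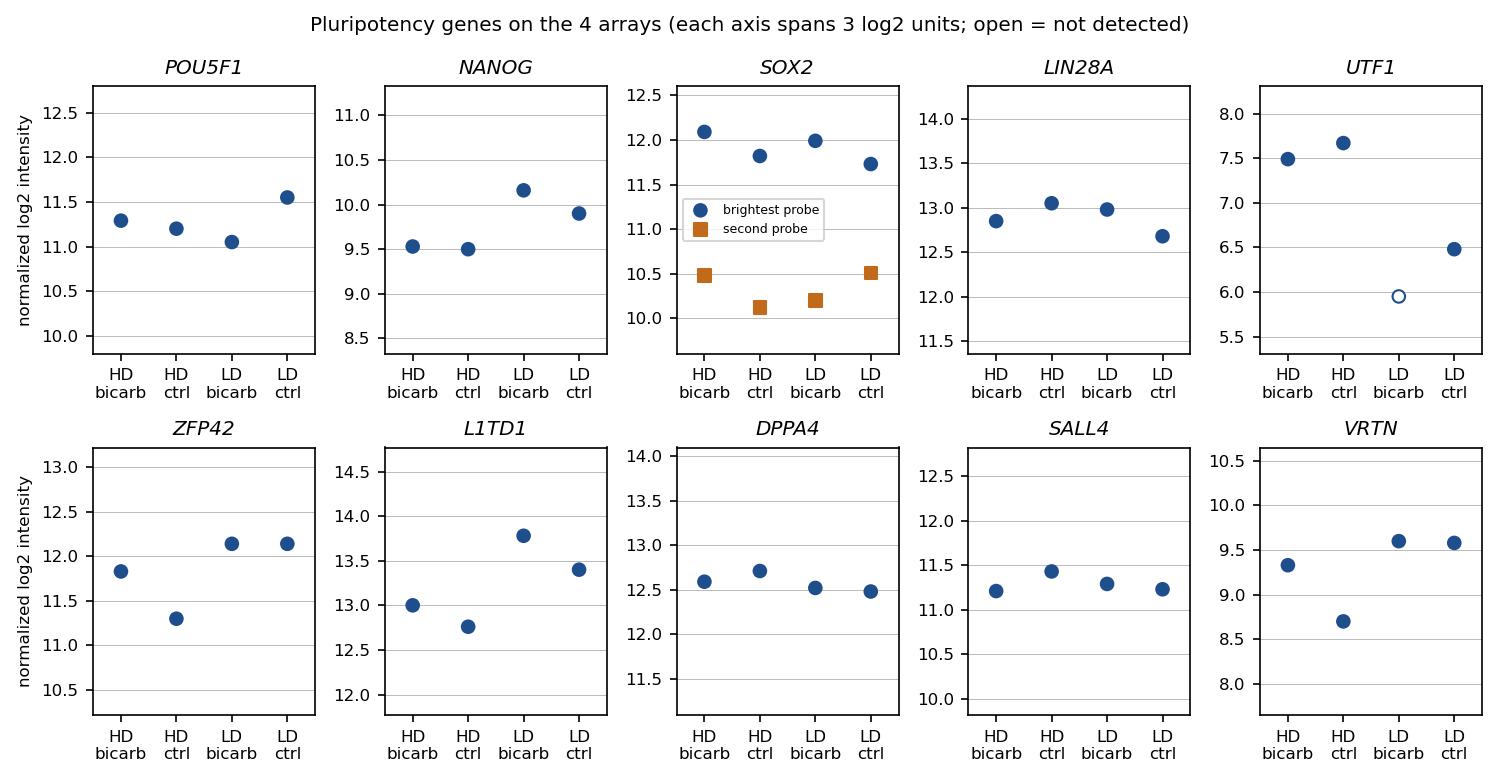
Normalized log2 intensity (y axis, 3 log2 units in every panel) of each gene on the 4 arrays: high density (HD) with bicarbonate and control, low density (LD) with bicarbonate and control. Each point is 1 probe on 1 array, an open point is not detected, and the undetected second probes of NANOG and POU5F1 are not drawn; VRTN and ZFP42 are lowest in the HD control, and UTF1 is higher on both HD arrays than on both LD arrays.

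High density was first set against low density in control medium. Of the 10 genes, all measured on both arrays, 3 were at least 1.5-fold lower at high density and 1 was at least 1.5-fold higher, against 23.9% of 8936 measured genes past 1.5-fold in either direction, 11.9% lower and 12.0% higher. VRTN was 1.84-fold lower (log2 difference -0.88), ZFP42 1.79-fold lower (-0.84) and L1TD1 1.56-fold lower (-0.64). UTF1 was 2.27-fold higher (1.18), the only member past 2-fold, against 6.61% of all genes, 3.77% higher and 2.84% lower. Of all measured genes, 4.47% were at least as far below 0 as VRTN, 5.23% as ZFP42 and 9.85% as L1TD1, and 2.19% were at least as far above 0 as UTF1. NANOG (-0.40) and POU5F1 (-0.35) stood lower by less than 1.5-fold, and LIN28A (0.37), DPPA4 (0.23) and SALL4 (0.21) stood higher by less. SOX2 stood at 0.09 on the brighter probe and at -0.39 on the second. The median of the 10 was -0.13, against 0.01 over all genes. In all 4 of 10 members were past 1.5-fold, and with so few genes that share was not set apart from the 23.9% of all genes. The standard deviation of the disagreement between 2 probes of a gene was 0.50 in this comparison over 1738 genes, which is a spread of probes on the same RNA and not of cultures.

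Added bicarbonate at high density was next set against the high-density control. Of the 10 genes 1 was at least 1.5-fold higher and 0 were lower, against 8.97% of 9188 measured genes in either direction, 4.49% higher and 4.47% lower. That gene was VRTN, 1.54-fold higher (0.62), followed by ZFP42 at 1.44-fold (0.53). Of all genes 3.56% were at least as far above 0 as VRTN and 6.03% as ZFP42. These differences appeared with the normalization: in raw intensity VRTN read 584.6 with bicarbonate and 568.1 in the control, and ZFP42 read 2717.2 and 2924.4, on arrays whose median intensities were 117.4 and 162.7. SOX2 stood at 0.27, and at 0.36 on its second probe, L1TD1 at 0.24, POU5F1 at 0.09 and NANOG at 0.04. SALL4 (-0.22), LIN28A (-0.20), UTF1 (-0.18) and DPPA4 (-0.12) stood below 0. With arrays set to equal medians instead, which moved the median of all genes to -0.14, POU5F1, SOX2, NANOG and L1TD1 came to -0.20, -0.04, -0.14 and -0.11. Relative to that median POU5F1 was at -0.06, SOX2 at 0.10, NANOG at 0.00 and L1TD1 at 0.03, so all 4 lay near it, and VRTN was at 0.61 and ZFP42 at 0.35. That scaling also moved the share of higher genes among all genes past 1.5-fold, to 21.8% in place of 50.1% here, to 39.0% in place of 50.2% between densities in control medium and to 38.3% in place of 48.9% between densities with bicarbonate. For bicarbonate at low density that share was 10.1% in place of 60.2%, and for dense cells with bicarbonate against sparse control cells 19.4% in place of 53.7%. The high-density control array enters this comparison and the previous one, so a low reading of VRTN or ZFP42 on that 1 array would appear in both, with opposite signs.

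At low density, 0 of 9 measured members were 1.5-fold apart between bicarbonate and control, against 3.72% of 8973 genes, 2.24% higher and 1.48% lower. POU5F1 was farthest, 1.41-fold lower with bicarbonate (-0.50), a difference that 2.74% of genes matched or exceeded in that direction. L1TD1 (0.38), LIN28A (0.30), SOX2 (0.27, but -0.31 on its second probe) and NANOG (0.26) stood above 0 by less than 1.5-fold. VRTN, SALL4 and DPPA4 were within 0.07 of 0, and ZFP42 read 12.14 on both arrays. UTF1 was not measured on both arrays. Its value in the low-density control was below the lowest detected value on the other array (6.53), so no fold is given. The disagreement between probes of a gene had a standard deviation of 0.41 here, larger than every member's difference but that of POU5F1.

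High density was also set against low density with bicarbonate on both sides. Of 9 measured members 2 were at least 1.5-fold lower at high density and 0 were higher, against 12.0% of 8836 genes lower and 11.5% higher, 23.5% in all. L1TD1 was 1.73-fold lower (-0.79) and NANOG 1.54-fold lower (-0.62). UTF1, detected at high density only, was at least 1.94-fold higher there, from 7.49 at high density against a lowest detected value of 6.53 at low density. ZFP42 (-0.31) and VRTN (-0.28) were lower by less than 1.5-fold, and POU5F1 (0.24), SOX2 (0.10), DPPA4 (0.08), SALL4 (-0.08) and LIN28A (-0.13) lay near 0. This comparison shares no array with that of density in control medium. In both, 6 of 9 members had the same sign, namely NANOG, SOX2, ZFP42, L1TD1, DPPA4 and VRTN, against 67.7% of all genes, so the share of members was close to that of genes in general. The sign of SOX2 in control medium differed between its probes. With equal medians, where the median of all genes was -0.11, POU5F1 came to -0.03, SOX2 to -0.19 and DPPA4 to -0.16, which relative to that median are 0.08, -0.09 and -0.06.

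Dense cells with bicarbonate were finally set against sparse cells in control medium. UTF1 alone was 1.5-fold apart, 2.00-fold higher, so 1 of 10 members was past that threshold, against 18.5% of 9127 genes, 9.96% higher and 8.58% lower. The others lay between -0.41 (L1TD1) and 0.36 (SOX2). VRTN stood at -0.26 and ZFP42 at -0.31 here, while in the high-density control they were 1.84-fold and 1.79-fold below the same low-density array.

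**Figure D2:**
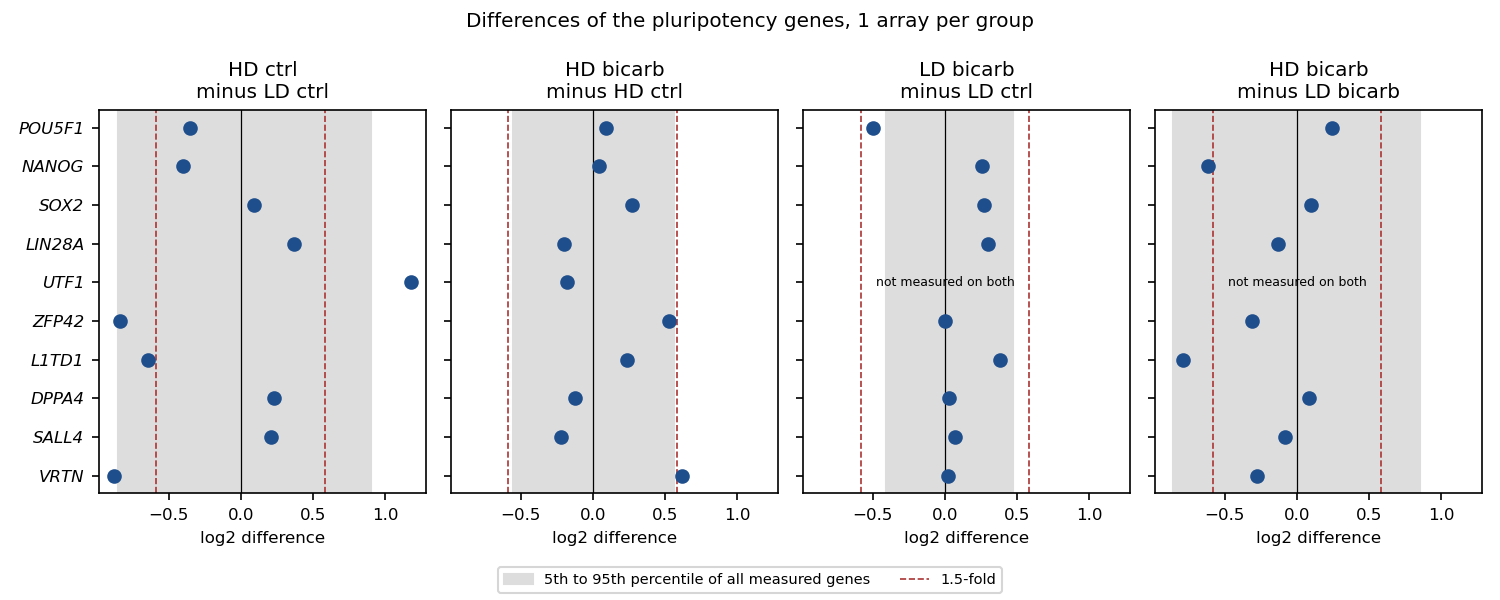
Log2 difference (x axis) of each gene (rows) in 4 comparisons of 1 array with 1 array. The grey band holds the middle 90% of all measured genes and the dashed lines mark 1.5-fold; UTF1 lies outside the band in HD control minus LD control, VRTN just past its edge there and in HD bicarbonate minus HD control, and POU5F1 outside it in LD bicarbonate minus LD control.

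The difference between both bicarbonate differences, high density minus low density, was computed for the 9 members detected on all 4 arrays. VRTN (0.60) and POU5F1 (0.59) were past 1.5-fold and no member was below -1.5-fold, so 2 of 9 were called, against 21.1% of 8554 genes, 10.4% higher and 10.7% lower. For VRTN the value came from high density (0.62 at high density, 0.02 at low density), and for POU5F1 it came mostly from low density (0.09 at high density, -0.50 at low density). ZFP42 stood at 0.53, LIN28A at -0.50, SALL4 at -0.29, NANOG at -0.22, DPPA4 at -0.15 and L1TD1 at -0.14. SOX2 was at 0.00 on the brighter probe and 0.67 on the second. Both bicarbonate differences had the same sign for 4 of 9 members, NANOG, SOX2, L1TD1 and VRTN, against 40.8% of all genes.

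For members that spanned at least 0.8 log2 units and were detected on every array, the genes nearest to them were sought by the root mean square difference between values centred on the mean of the 4 arrays. VRTN lay nearest to DNMT3B, the de novo DNA methyltransferase of primed stem cells, at 0.023 log2 units, then to SCAMP4 (0.027) and to ZFP42 itself (0.034). DNMT3B stood at 12.95 at high density with bicarbonate, 12.33 in the high-density control, 13.25 at low density with bicarbonate and 13.17 in the low-density control. All 4 detected probes of DNMT3B stood lower in the high-density control than in the low-density control (log2 differences of -0.49 to -1.21) and higher with bicarbonate at high density (0.46 to 0.64). At low density these probes disagreed, from -0.65 to 0.51 with bicarbonate against control. The closeness to VRTN is that of the brightest probe, which stood at 0.08 there. ZFP42 was nearest to TXN2 (0.018), ZNF845 (0.024) and CHST10 (0.032). L1TD1 was nearest to NEK8 (0.007), INO80B (0.025) and ANKRD16 (0.029). Such closeness was common over only 4 arrays: of 8553 genes, 92 lay within 0.1 log2 units of VRTN, 139 of ZFP42 and 88 of L1TD1.

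**Figure D3:**
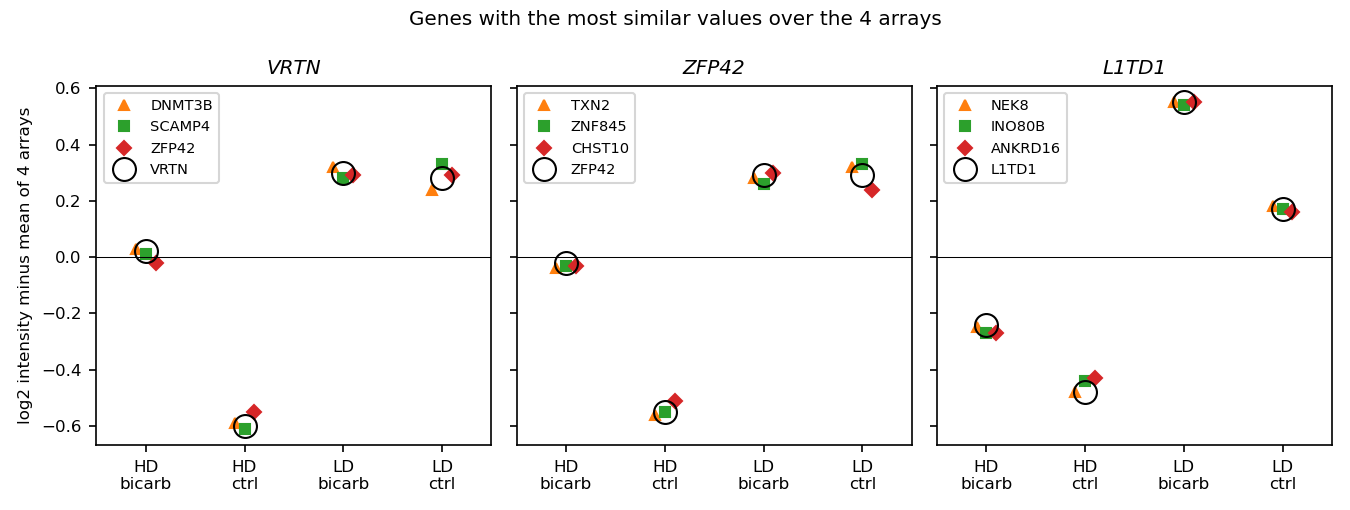
Log2 intensity minus the mean over the 4 arrays (y axis) for VRTN, ZFP42 and L1TD1 (open circles) and the 3 genes nearest to each (coloured points, shifted sideways for clarity). VRTN, ZFP42 and DNMT3B are lowest in the high-density control and highest at low density, and L1TD1 is high on both low-density arrays.

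Other genes of the network were described through lists. In the list of other pluripotency network genes, 21 were measured in high against low density in control medium, and 5 of them stood lower by 1.5-fold or more and 2 higher, against 11.9% and 12.0% of all genes. Without background correction 2 stood lower and 2 higher, against 539 lower and 614 higher of all 8936 genes. In the authors' deposited log2 values 3 stood lower and 2 higher, against 934 and 960 of all genes. The median of that list was -0.24. The homeobox factor OTX2 (-1.12) and DNMT3B (-0.84) were the lowest of those named by the rule, and JADE1, part of a histone acetyltransferase complex, was the highest (1.97), though its 2 other detected probes stood at -0.07 and 1.21. With bicarbonate at high density 2 of 22 genes were higher, DNMT3B (0.62) and OTX2 (0.61), and 0 were lower, against 4.49% and 4.47% of all genes, and the median was 0.24. That count was 1 higher and 0 lower under 4 other settings (no background correction, the authors' deposited log2 values, the mean of all detected probes and an offset of 50). In the order of these settings, 2.69%, 6.96%, 8.44% and 6.14% of all genes were past 1.5-fold in either direction. With equal medians 0 were higher and 1 was lower, with a median of -0.01 against -0.14 over all genes. Of all 9187 genes, 225 were then higher and 805 lower. ZIC2, a zinc finger factor, stood just short of 1.5-fold (0.56). Of the genes of the primed state, the later of the pluripotent states in which such cell lines are held, 18 of 18 on the platform were measured. In control medium 4 of them were lower at high density and 0 higher (median -0.05), against 11.9% and 12.0% of all genes, and the homeobox gene HMX2 (-0.75) followed OTX2 and DNMT3B. Without background correction 2 of the 18 were lower and 0 higher, against 539 lower and 614 higher of all 8936 genes. With bicarbonate at high density 4 stood higher and 0 lower (median 0.21), against 4.49% and 4.47% of all genes, among them the POU factor POU3F1 (0.99, and 0.95 on its second probe) and HMX2 (0.84). With equal medians 2 primed genes were higher and 2 lower (median 0.01), against 225 higher and 805 lower of all 9187 genes (median -0.14). Both lists hold DNMT3B, OTX2 and other genes in common, so their counts are not independent. At low density with bicarbonate 2 of 22 network genes were higher and 1 lower, and 1 of 18 primed genes was higher and 1 lower, against 2.24% of all genes higher and 1.48% lower. The higher primed gene was OTX2 (0.66). The lower one was HMX2 (-0.70), whose bicarbonate difference thus had opposite signs at high and low density. Between densities with bicarbonate on both sides 4 of 21 network genes were higher and 2 lower, and 4 of 18 primed genes were higher and 1 lower, against 11.5% and 12.0% of all genes.

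Of 19 genes of the naive state, the earlier pluripotent state, 14 were detected on no array, KLF17, TFCP2L1, DPPA3, DPPA5 and DNMT3L among them. The surface protein gene SUSD2 was measured on all arrays and stood 1.18 higher at high density in control medium. KLF4 stood at 0.08 in that comparison. PRDM14 went the other way, detected in the low-density control (6.98) and not in the high-density control (5.42). With bicarbonate PRDM14 was detected at high density (6.98) and not at low density (6.33). TFAP2C, a transcription factor of naive and germ cells, was detected on both high-density arrays and on neither low-density array, and stood 2.00-fold lower with bicarbonate at high density, though its second probe stood at -0.11.

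Among paralogs of the members, 1 of 7 was past 1.5-fold between densities in control medium, SOX3 at 0.83, a close relative of SOX2, against 23.9% of all genes. With bicarbonate at high density 2 of 9 were higher, SOX21 (1.22) and POU3F1, and 1 was lower, SOX3 (-0.72), against 8.97% of all genes past 1.5-fold, and the list's median was 0.01. LIN28B, the other LIN28 gene, stood within 0.21 of 0 in all 5 comparisons. SALL3, a paralog of SALL4, was detected on both low-density arrays (7.21 with bicarbonate, 6.67 in the control) and on neither high-density array. It is therefore not among the paralogs counted above. Subunits of NuRD, a histone deacetylase complex that SALL4 recruits, were past 1.5-fold in 0 of 12 measured cases between densities in control medium and in 1 of 13 with bicarbonate at high density, MTA3 (0.90), against 23.9% and 8.97% of all genes. Of 11 RNA-binding and microRNA pathway genes, DGCR8 of microRNA processing was lower at high density in control medium (-1.18), and 0 of 11 were past 1.5-fold with bicarbonate at high density, against the same shares of all genes. DICER1, the enzyme that cuts the microRNA precursors, stood at -0.51 between densities on its brightest probe and at 0.49 on another of similar brightness.

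**Figure D4:**
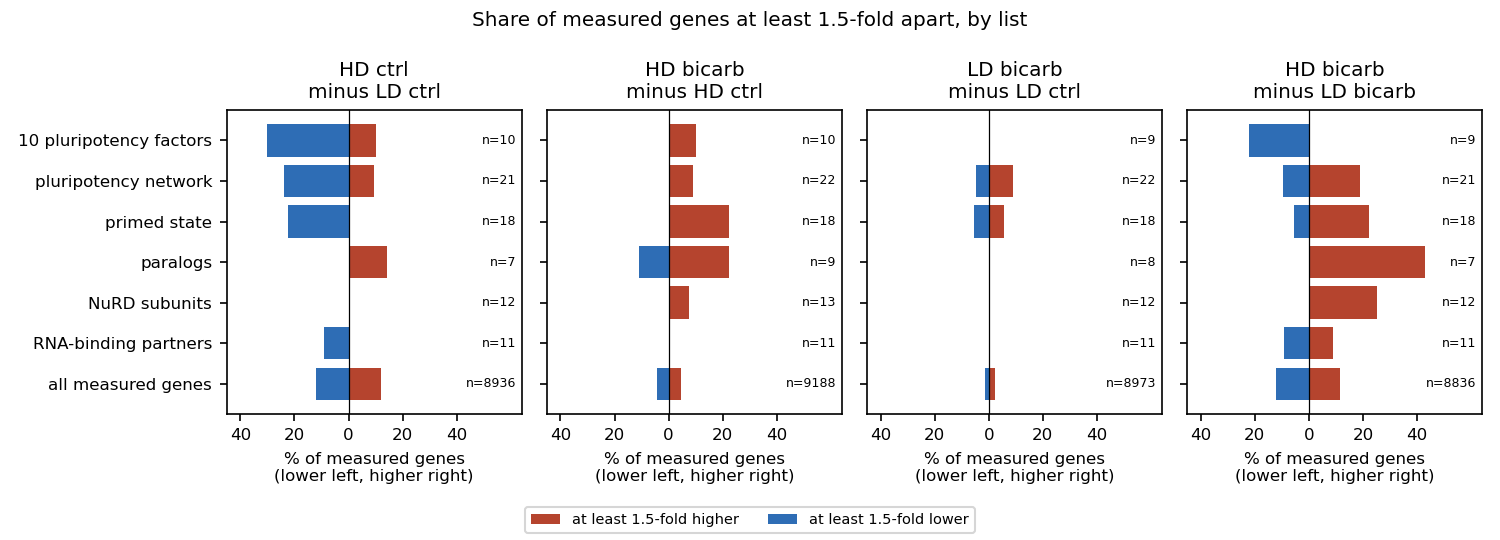
Percent of measured genes (x axis) at least 1.5-fold higher (right, red) or lower (left, blue) in each list (rows, with the number of measured genes) in 4 comparisons of 1 array with 1 array. The bottom row gives all measured genes; of the 10 pluripotency factors 3 are lower and 1 is higher in HD control minus LD control, and 1 is higher in HD bicarbonate minus HD control.

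The processing moved some of these calls. VRTN and ZFP42 stayed at least 1.5-fold lower in the high-density control than in the low-density control under all 7 alternative settings tried, at -0.71 to -0.98 and -0.81 to -0.84. Each has 1 probe. Hence a detection p-value under 0.05, the mean of all detected probes and a log2 floor of 8 could not change these values. L1TD1 came to -0.50 with equal medians, which is short of 1.5-fold, and to -0.45 relative to the median of all genes under that setting. UTF1 stood between 0.60 and 1.18 under the settings that kept it, and a floor of 8 on the mean log2 intensity removed it. The bicarbonate difference of VRTN at high density lay between 0.47 and 0.62, on both sides of the 1.5-fold line at 0.585, and that of ZFP42 between 0.21 and 0.53.

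**Figure D5:**
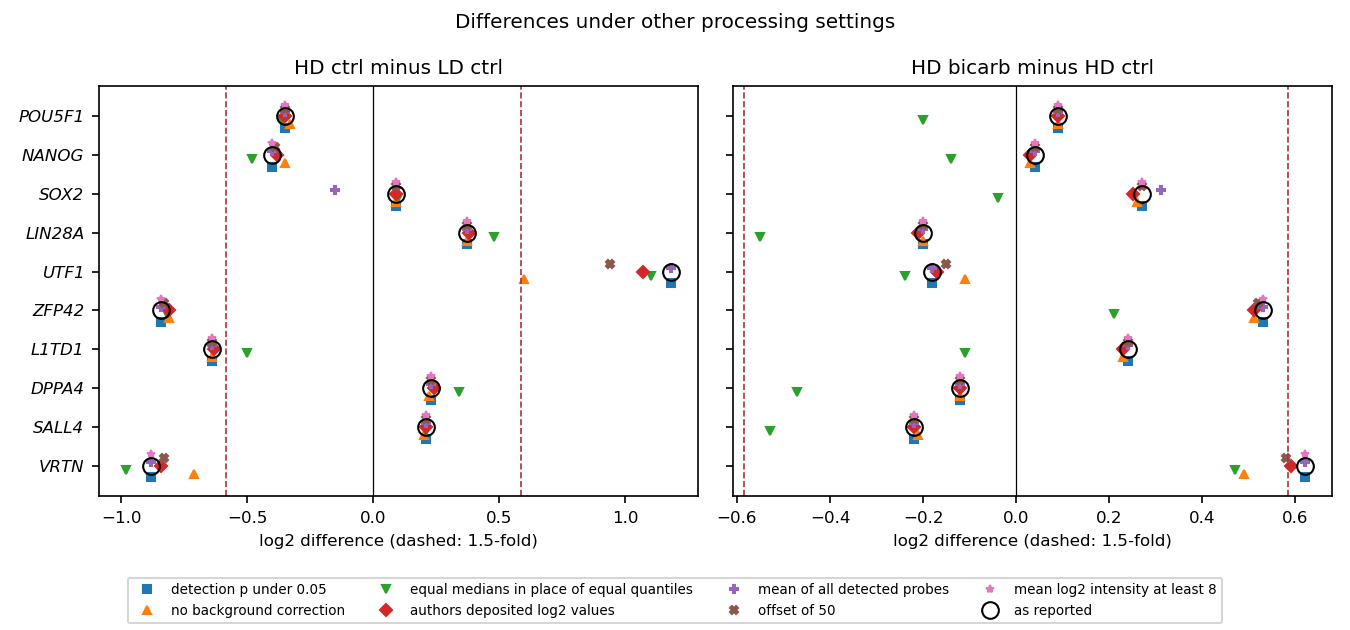
Log2 difference (x axis) of each gene (rows) as reported (open circle) and under 7 other settings (coloured marks) in 2 comparisons, with dashed lines at 1.5-fold. VRTN and ZFP42 stay left of the line under every setting in HD control minus LD control, and VRTN lies on both sides of it in HD bicarbonate minus HD control. Settings that change only which probes or genes are counted leave a gene with 1 detected probe at the reported value or drop it.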

How the data were processed

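Total RNA was made into biotin-labelled cRNA for Illumina BeadChips, per the labels' protocols, with 1 array per group, and groups were read from the sample titles. The deposited table holds an unnormalized probe intensity and a detection p-value per array, per the file headers. The authors also deposited log2 values, used as an alternative, with a median of 6.02 per array, whose background and normalization steps, like the scanner software, the sources used here do not give.

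The intensities were processed with neqc (limma 3.58.1, R 4.3.3): normal-exponential background from the detection p-values, offset 16, equal quantiles. Other steps used Python 3.11.15. Of 47293 probes, 30098 had 1 gene symbol in the platform annotation, 8 several and 17187 none. All 10 symbols were unchanged in a current gene table. A gene was measured where its brightest probe was detected (p-value under 0.01) on both arrays, and a gene detected on 1 of them got a bound from the lowest detected value of the other. Fold thresholds of 1.5 and 2 only count genes. No test was run, since each group is 1 array. The procedure was tested on simulated data.

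The members, the 11 other lists and the rule for named genes were chosen with earlier results of these data known. The rule names every member, takes from each list the 3 measured genes farthest from 0 in density in control medium and in bicarbonate at high density, and the 3 genes nearest to each member spanning at least 0.8. CRIPTO, FOXA2, AFP, LIN28B, PRDM14, SALL3 and the undetected genes were named after their values were seen. Of lists with fewer than 3 measured genes no alternatives were computed.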

Additional observations from a re-analysis of the deposited data

How the results depend on the processing

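No paired analysis was possible because each group is 1 array, and no replicate could be left out. The count of members at least 1.5-fold apart kept within 1.5 times its value in 31 of 42 recomputed counts. For bicarbonate at high density it was 1 and became 0 with no background correction, with equal medians and with an offset of 50. For density with bicarbonate it was 2 and became 1 with no background correction. For dense cells with bicarbonate against sparse control cells it was 1 and became 0 with no background correction, 4 with equal medians (1 higher and 3 lower, and 1 relative to the median of all genes, -0.21) and 0 with a log2 floor of 8. For the difference between both bicarbonate differences it was 2 and became 0 with no background correction, the authors' deposited log2 values and an offset of 50. With equal medians it was 1, and that member was LIN28A (-0.82), while VRTN (0.58) and POU5F1 (0.33) were no longer counted. Thresholds lie close to several members, and the cause was not tested. Of 396 values of single members under other settings, 394 moved by less than the standard deviation of the disagreement between probes. For the difference between both bicarbonate differences, the limit was the largest such standard deviation times the square root of 2. Many of these values could not move. A detection p-value under 0.05, the mean of all detected probes and the log2 floor leave a member with 1 detected probe unchanged or drop it. Values near 0 could also change sign within the limit. The 2 values that moved further were of UTF1 without background correction. They were 0.60 in density in control medium and 0.49 in dense cells with bicarbonate against sparse control cells. UTF1 is the dimmest member used, and its signal near background limits its fold. At a detection p-value under 0.05 it was also measured at low density with bicarbonate, at -0.54 against the control. No member past 1.5-fold changed sign.

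Over all genes, the number at least 1.5-fold apart without background correction was 1153 in place of 2133 for density in control medium, 247 in place of 824 for bicarbonate at high density and 64 in place of 334 for bicarbonate at low density. It was 1136 in place of 2073 for density with bicarbonate, 780 in place of 1692 for dense cells with bicarbonate against sparse control cells and 880 in place of 1804 for the difference between both bicarbonate differences. The log2 floor of 8, which tests fewer genes, gave 1390, 440, 166, 1053 and 1025 for all of these but density with bicarbonate. As shares of the genes tested these are 22.6%, 7.14%, 2.69%, 17% and 17.9%, against 23.9%, 8.97%, 3.72%, 18.5% and 21.1% without the floor. Density with bicarbonate gave 1395, or 22.6% against 23.5%. For bicarbonate at low density the number was 517 with equal medians (5.76% of genes tested) and 191 with an offset of 50 (2.13%). At a detection p-value under 0.05 it was 568, out of more genes tested (5.11% of 11111).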
